A study of Mus musculus with 7 samples.

Results

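Enteroendocrine cells are the hormone-secreting cells of the gut epithelium, and 10 of their genes were followed here in colon adenoma cells labelled KO or WT for Mex3a. The genes are the serotonin-synthesis enzymes Ddc and Tph1, the granins Chga and Chgb, the peptide hormones Pyy, Gcg, Insl5, Sct and Cck, and the transcription factor Neurod1. They were chosen by name, and every probe set that the platform annotation pairs with exactly 1 symbol, equal to one of the 10, was taken. This gave 12 probe sets of the 45037 tested, covering 10 of 10 genes. Ddc and Neurod1 had 2 probe sets each and the other 8 genes had 1.

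The study hybridised 7 samples to Affymetrix mouse arrays, 3 KO and 4 WT for Mex3a, which encodes an RNA-binding protein. KO mice are taken here as those with a Tomato reporter allele and a floxed allele of Mex3a (Mex3a tom/flox), and WT mice as those with the reporter allele alone (Tom/+), since the labels give the array genotype only as KO or WT. All animals carried Villin CreERT2, a tamoxifen-inducible Cre driven in the gut epithelium, and APC fl/+, which is 1 floxed allele of the tumour suppressor. All received 4 doses of tamoxifen and then drank 2% DSS, which injures the colon epithelium and causes colitis, for 5 days. Adenomas were taken 2 months after DSS per the design text, while the growth protocol counts the same time from induction. Cells positive for the epithelial protein Epcam and for Tomato, a readout of Mex3a promoter activity, were sorted. Both groups are therefore adenoma cells sorted for Mex3a promoter activity. Whether all of them were tumour cells was not tested. RNA of 2000 cells was amplified over 24 cycles. Neither age nor the number of animals behind an array was found in the labels. The p-values therefore rest on the spread from array to array, and part of it may be technical.

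In an enteroendocrine cell, Neurog3 and then Neurod1 switch on the endocrine programme. Granins pack hormones into dense-core granules, and each subtype releases its own products. Enterochromaffin cells make serotonin: TPH1 hydroxylates tryptophan, the rate-limiting step, and DDC, the aromatic L-amino acid decarboxylase, removes the carboxyl group of the product. DDC is not confined to endocrine cells and is also known from absorptive enterocytes and the kidney tubule, where it makes dopamine. The L cells of the colon co-secrete peptide YY, proglucagon products and INSL5.

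Values are log2 levels per probe set on the deposited scale. Median levels over all probe sets were 5.96 to 5.97 in KO and 5.96 to 6.00 in WT arrays, and the number of arrays limits the precision. On its brighter probe set Mex3a stood at 6.18, 6.29 and 6.07 in the KO arrays, against 7.41, 7.38, 7.50 and 7.01 in the WT arrays, with no overlap. The log2 difference, KO minus WT, was -1.13 (SE 0.13; limma, adjusted p = 0.334). The other Mex3a probe set had no overlap either, with a difference of -0.60 (SE 0.15; limma, adjusted p = 0.483). Epcam averaged 11.94 in both KO and WT. Of 8 leukocyte and fibroblast markers, Ptprc, Cd3e and Pdgfra lay within the lowest 25% of genes, and Csf1r, Cd79a, Col1a1, Col3a1 and Dcn above it. Col3a1, a fibroblast collagen, read 5.84, 8.37 and 6.31 in KO and 5.56, 6.21, 8.26 and 5.48 in WT, highest in KO replicate 2 and WT replicate 3. Arrays are numbered within each genotype in the order of deposit, which pairs no KO with a WT array. KO replicate 1 and WT replicates 1 and 2 form scan batch 1, and the other 4 arrays scan batch 2. Scan batch was a term of the fit.

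Ddc is transcribed from alternative starts, and the RefSeq table (GRCm38.p6) holds a pair of promoters for it. They are shown with those of the granins, because the question asked of Ddc is whether it goes with the endocrine genes. Each window is the 250 bases before a start. Capitals mark a match on either strand to CANNTG (the E-box bound by basic helix-loop-helix factors such as NEUROD1), to TGACGT (the core of a cyclic AMP response element) or to GTTAA and ATTAA with 2 bases between them (the HNF1 element).
Ddc upstream start, chr11:11898145-11898394, minus strand: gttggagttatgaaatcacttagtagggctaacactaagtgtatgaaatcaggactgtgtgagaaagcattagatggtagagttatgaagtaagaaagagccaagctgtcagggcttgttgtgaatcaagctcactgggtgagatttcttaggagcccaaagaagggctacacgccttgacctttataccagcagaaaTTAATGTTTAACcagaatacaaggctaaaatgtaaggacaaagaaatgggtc
Ddc downstream start, chr11:11890409-11890658, minus strand: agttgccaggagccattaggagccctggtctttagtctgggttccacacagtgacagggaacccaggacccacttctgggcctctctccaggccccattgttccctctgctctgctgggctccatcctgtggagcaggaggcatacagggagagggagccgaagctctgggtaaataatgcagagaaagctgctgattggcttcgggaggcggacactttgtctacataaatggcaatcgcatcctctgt
Chga, chr12:102554691-102554940, plus strand: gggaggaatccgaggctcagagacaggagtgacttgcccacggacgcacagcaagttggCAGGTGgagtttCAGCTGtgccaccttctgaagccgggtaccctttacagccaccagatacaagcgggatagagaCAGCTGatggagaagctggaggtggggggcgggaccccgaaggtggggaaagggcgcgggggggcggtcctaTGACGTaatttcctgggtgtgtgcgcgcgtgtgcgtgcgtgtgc
Chgb, chr2:132781392-132781641, plus strand: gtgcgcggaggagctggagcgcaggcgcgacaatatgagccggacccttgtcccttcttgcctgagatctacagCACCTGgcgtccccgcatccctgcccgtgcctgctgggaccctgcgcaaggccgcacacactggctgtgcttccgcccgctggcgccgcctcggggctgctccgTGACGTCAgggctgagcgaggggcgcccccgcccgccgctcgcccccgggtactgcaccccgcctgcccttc

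The upstream Ddc window held 1 HNF1 match, 52 bases before the start, and neither Ddc window held an E-box or a response element core. Chga held 3 E-boxes and 1 response element core, and Chgb held 1 E-box and 2 cores that overlap on opposite strands. Neither of the Tph1 windows held any of the 3 motifs. Over the 14 promoters of the 10 genes, 10 held an E-box, 2 a response element core and 1 an HNF1 match. Of all 32851 promoters of that length in the table, 66.2% held an E-box, 6.47% a response element core and 0.143% an HNF1 match. The motifs were chosen with the sequences in view, and a match is a description of letters, not a site.

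Ddc had the largest difference of the 12 probe sets, with a higher mean in KO that did not pass the test after adjustment. On its brighter probe set, Ddc read 7.43, 8.27 and 7.98 in the KO arrays, against 6.08, 7.54, 6.79 and 6.66 in the WT arrays. KO replicates 2 and 3 lay above every WT array, while KO replicate 1 lay just under WT replicate 2, so the groups overlapped through that 1 pair. WT replicates 1, 3 and 4 read below the highest nonspecific control probe set of their array (7.34, 8.16 and 7.92), and the other arrays above it. The part of background in these readings was not tested. KO arrays averaged 7.89 ± 0.43 (SD, n = 3), WT arrays 6.77 ± 0.60 (SD, n = 4), and the fitted level was 2.12-fold higher in KO. The log2 difference in the limma fit was 1.09 (SE 0.33, 95% interval 0.32 to 1.85). Its unadjusted p was 0.0115 and its Benjamini-Hochberg adjusted p over all probe sets 0.494, which does not pass 0.05. In bulk RNA, more cells of a type and more RNA per cell cannot be told apart.

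**Figure D1:**
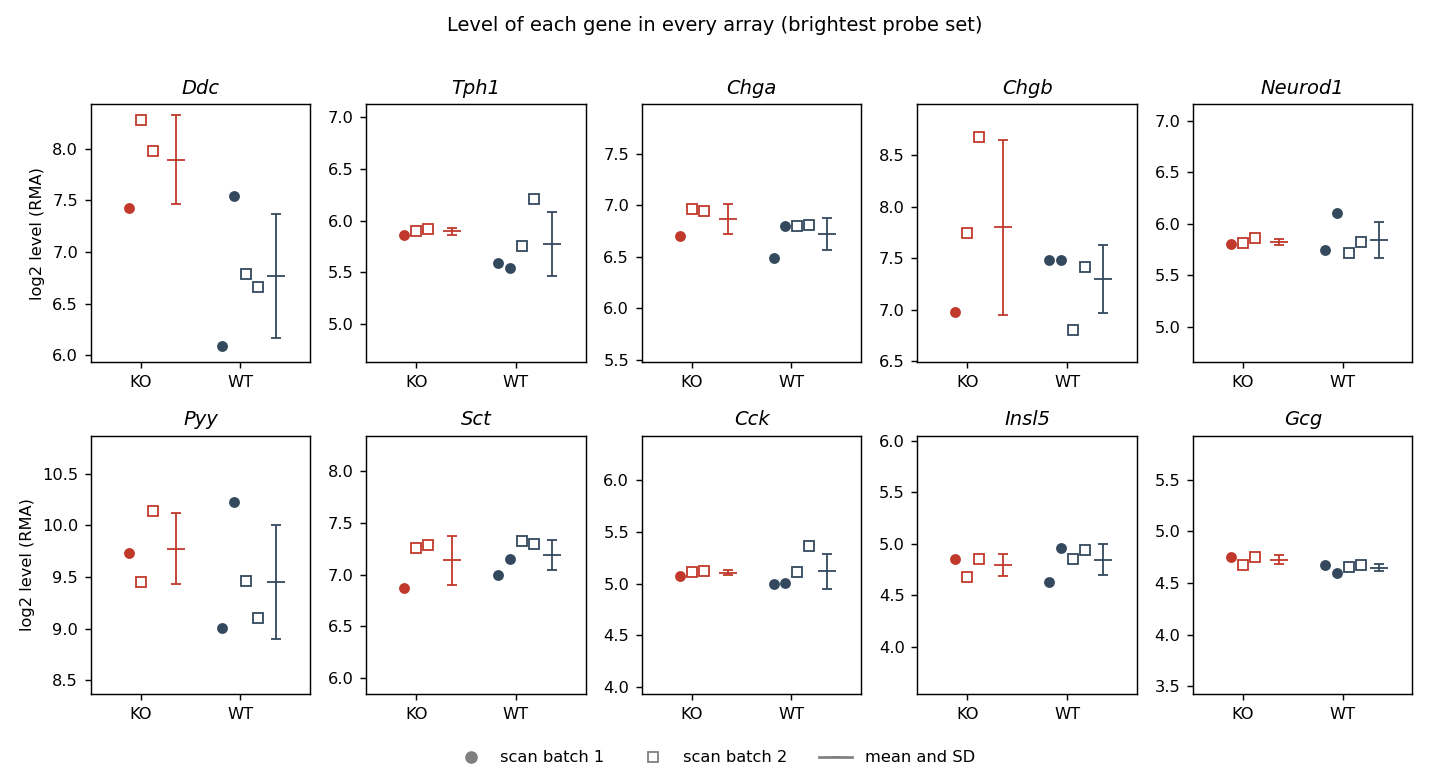
Log2 level (y axis) of the brightest probe set of each of the 10 genes in every array, KO left and WT right, with filled circles for scan batch 1, open squares for scan batch 2, and the mean with SD beside the points. Every panel spans the same range of log2 units; Ddc, Chgb and Pyy spread widest, and no panel separates KO from WT.

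The whole table sets the scale for that value. In absolute size 23 probe sets differed by more than Ddc, but 1040 had a smaller p. Of all probe sets, 0 (0%) passed an adjusted p of 0.05 in limma and 9.39% had an unadjusted p under 0.05, 5.58% higher and 3.81% lower in KO. Among the 12 probe sets Ddc was the 1 with an unadjusted p under 0.05 and 0 passed after adjustment. KO and WT did not overlap for 0 of the 12, against 4.96% of all probe sets (2.16% with KO above WT and 2.8% with KO below). A positive difference was seen for 7 of the 12, against 41.9% of all probe sets, and the median difference was 0.05, against -0.02 over the table.

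The size of the Ddc difference varied with the arrays and the scan batch. It was 0.61 in scan batch 1, where the KO arm is 1 array, and 1.40 in scan batch 2. The two-sided exact permutation p was 0.0857 over the 35 splits of the arrays (smallest possible 0.0286), and 0.167 with arrays exchanged within scan batch, where the smallest possible is 0.0556. Gcg, whose readings spanned only 0.15 log2 units, had exact permutation p of 0.0857 and 0.111 in the same 2 tests. Leaving out 1 array gave Ddc differences of 0.90 to 1.40. Without WT replicate 2 the difference was 1.38 (limma, adjusted p = 0.130). A further setting was picked once the values were known. It left that array out and kept 1 probe set per gene above the lowest 25% of levels. There the adjusted p in limma was 0.0208, and 2 of 12822 genes passed. WT replicate 2 has the highest Ddc of the WT arrays, so leaving it out removes the overlap, and no conclusion is drawn. Over the 20 alternatives the adjusted p ranged from 0.0208 to 0.935.

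For the Gapdh control probe sets, the log2 level at the 3' end minus that at the 5' end, a measure related to RNA integrity, was -0.15, -0.21 and -0.24 in KO and -0.13, -0.21, -0.12 and -0.12 in WT. The 4 arrays with the lowest values, the KO arrays and WT replicate 2, were also the 4 with the highest Ddc. With this measure as a further covariate the Ddc difference was 0.53 (SE 0.26; limma, adjusted p = 0.709). The part of RNA quality in the difference was not tested further.

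**Figure D2:**
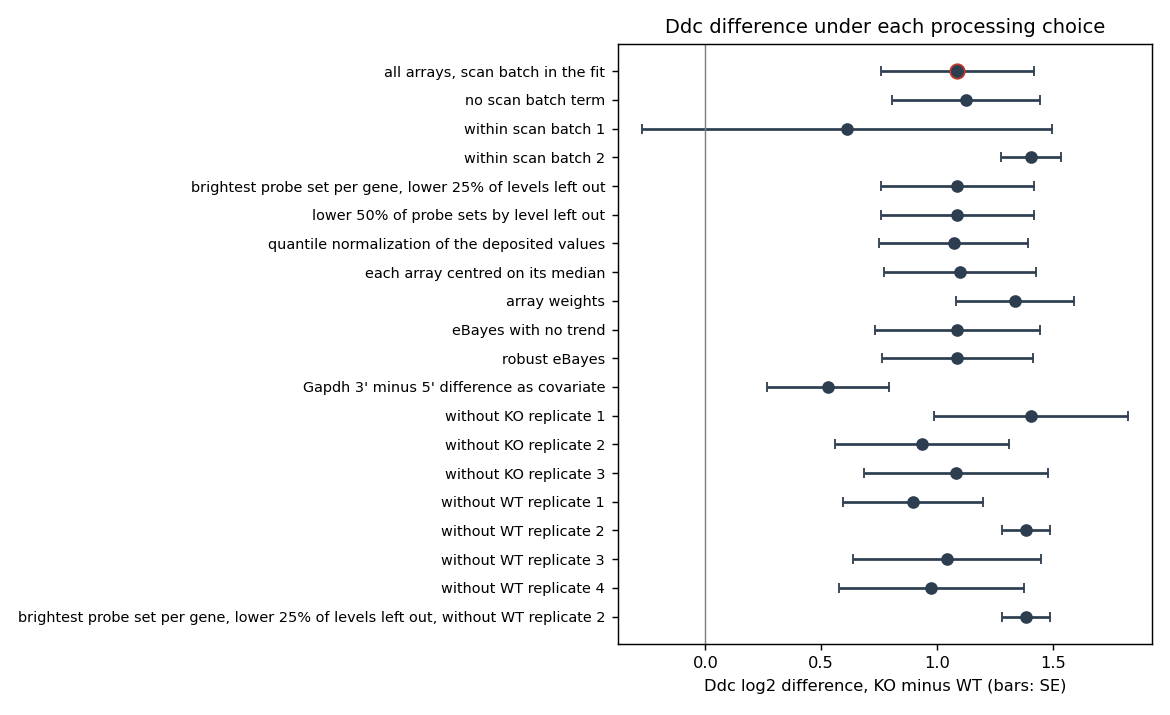
Log2 difference of Ddc, KO minus WT, with its SE (x axis) under each processing choice (y axis), the value as reported ringed in red at the top and the dimmer probe set left out. All points shown lie above 0, while the SE bar within scan batch 1 crosses it, and they are lowest at 0.53 with the Gapdh covariate and highest at 1.40 without KO replicate 1 or within scan batch 2.

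The dimmer Ddc probe set did not show the difference. It read 4.45, 4.42 and 4.45 in KO and 4.28, 4.45, 4.44 and 4.64 in WT, with a difference of -0.03 (SE 0.07; limma, adjusted p = 0.899). These readings lie near the median of the nonspecific control probe sets, which was 4.32 to 4.47 per array. It was designed on another transcript record than the brighter probe set, and whether it reads the main Ddc transcripts was not tested.

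Tph1, which commits tryptophan to serotonin, was at 5.86, 5.90 and 5.92 in the KO arrays, against 5.59, 5.54, 5.75 and 6.21 in the WT arrays. All KO readings lay inside the WT range, and WT replicate 4 was the highest array. Its level stood at percentile 47.4 of all probe sets. Every reading was above the median of the nonspecific controls but below the highest of them, which was 6.88 to 8.16 per array. How much of the Tph1 reading is background was not tested. The difference was 0.08 (SE 0.13, 95% interval -0.21 to 0.37; limma, adjusted p = 0.859). It was 0.29 in scan batch 1, where the KO arm is 1 array, and -0.07 in scan batch 2. Without WT replicate 4 it was 0.23.

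Chga encodes chromogranin A, the general marker of enteroendocrine cells. It read 6.70, 6.96 and 6.94 in KO and 6.49, 6.80, 6.80 and 6.81 in WT. KO replicates 2 and 3 were the highest arrays and WT replicate 1 the lowest, and KO replicate 1 lay below 3 of the 4 WT arrays. The readings spanned 0.47 log2 units, all below the highest nonspecific control of their array, which was 6.88 to 8.16. How much of the Chga reading is background was not tested. The difference was 0.11 (SE 0.09, 95% interval -0.11 to 0.33; limma, adjusted p = 0.715). It was 0.064 without WT replicate 1, 0.17 without WT replicate 2 and 0.0099 with the Gapdh covariate.

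Chgb, chromogranin B, varied more than Chga. It read 6.98, 7.74 and 8.68 in KO, against 7.49, 7.49, 6.80 and 7.41 in WT. KO replicate 3 was far above all other arrays, while KO replicate 1 was below 3 of the 4 WT arrays. The difference was 0.46 (SE 0.36, 95% interval -0.38 to 1.30; limma, adjusted p = 0.692). Leaving out KO replicate 3 gave 0.06, leaving out WT replicate 3 gave 0.15 and leaving out KO replicate 1 gave 1.10. It was -0.51 in scan batch 1 and 1.10 in scan batch 2.

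**Figure D3:**
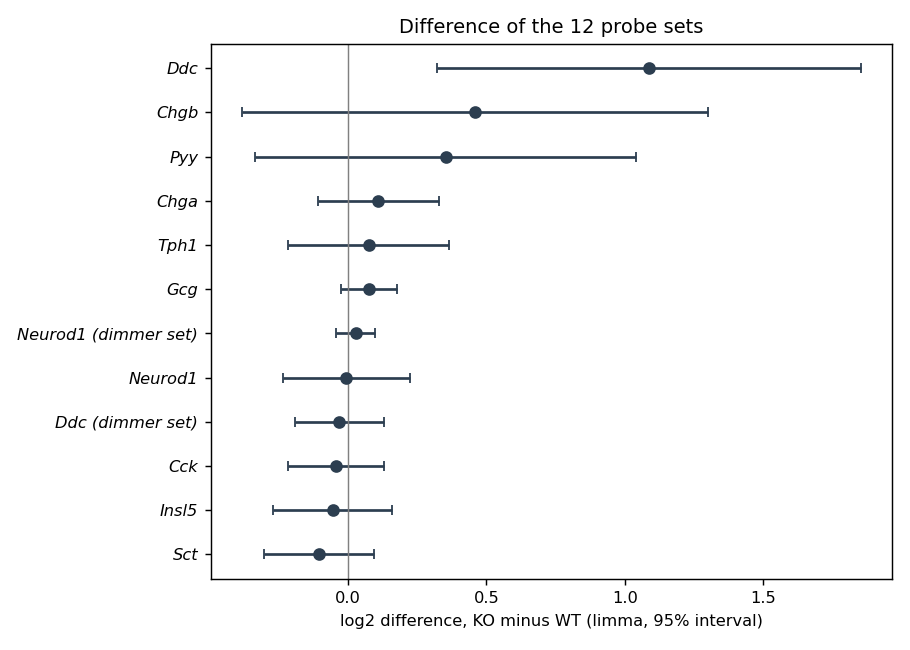
Log2 difference, KO minus WT, of the 12 probe sets (x axis) with 95% intervals from limma, ordered by size. The interval of the brighter Ddc probe set lies above 0 before adjustment, and the other 11 intervals include 0.

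Whether Ddc followed Tph1 and the granins was asked in a first step through the differences themselves. On the mean scale the KO minus WT difference of Ddc exceeded that of Tph1 by 1.00, that of Chga by 0.98 and that of Chgb by 0.62. The two-sided exact permutation p over 35 splits was 0.114, 0.0857 and 0.286 for these 3 pairs, or 0.171, 0.171 and 0.286 after Benjamini-Hochberg adjustment over the 3. Ddc was therefore not shown to differ between genotypes by more than these genes, although it had the larger mean difference in all 3 pairs. For Tph1 the excess was 0.32 in scan batch 1 and 1.47 in scan batch 2. For Chga it was 0.56 and 1.26 in those batches. For Chgb it was 1.12 and 0.30.

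The second step was how the genes varied from array to array. Over the 7 arrays Ddc and Chga had a Pearson r of 0.82 (exact permutation p = 0.0167, adjusted over 3 pairs 0.05) and a Spearman rho of 0.72 (exact permutation p = 0.0770, adjusted 0.231). Adjusted over all 9 genes set against Ddc, the p of r was 0.15. Without WT replicate 1 and KO replicate 2, the arrays farthest from the Chga median, r was 0.43. Those arrays hold the lowest and the highest Chga reading. Leaving out both ends narrows the range, which can lower r by itself, so the fall cannot show that the relation rests on them. With any 1 array left out r was 0.65 to 0.90. Chga still ranked 383 among the 12822 genes above the lowest 25% of levels, when ordered by their r with Ddc.

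Tph1, the other enzyme of serotonin synthesis, had an r of 0.14 with Ddc (exact permutation p = 0.768, adjusted 0.768) and a rho of 0.18 (exact permutation p = 0.713, adjusted 0.713). Leaving out WT replicates 2 and 4, the arrays farthest from the Tph1 median, moved r to 0.96, so the value depends on those arrays. WT replicate 2 combined high Ddc with the lowest Tph1, and WT replicate 4 combined the highest Tph1 with low Ddc. Chgb had an r of 0.50 (exact permutation p = 0.265, adjusted 0.398) and a rho of 0.58 (exact permutation p = 0.187, adjusted 0.281). Its r was 0.21 without KO replicate 3 and WT replicate 3. The scan batches hold 3 and 4 arrays, too few for a value within either.

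**Figure D4:**
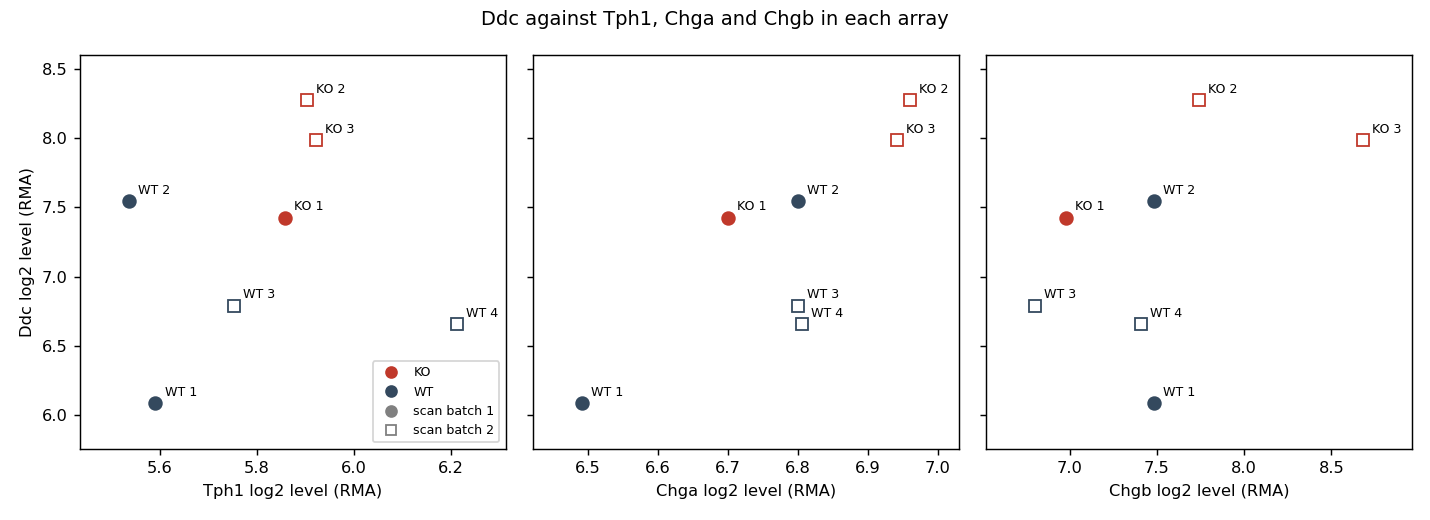
Log2 level of Ddc (y axis) against Tph1, Chga and Chgb (x axes) in each of the 7 arrays, KO in red and WT in dark blue, filled for scan batch 1 and open for scan batch 2. Ddc and Chga share their lowest array (WT replicate 1) and their highest (KO replicate 2), while for Tph1 the points scatter with an r of 0.14.

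The remaining 6 genes were set against Ddc in the same way after the first 3. Pyy had the highest r of them, 0.68 (exact permutation p = 0.0996, adjusted over all 9 genes 0.448), and a rho of 0.61 (exact permutation p = 0.167, adjusted 0.562). Its r was the same, at 0.68, without KO replicate 3 and WT replicate 2. For Neurod1, Gcg, Sct, Insl5 and Cck r lay between -0.08 and 0.40, with adjusted exact permutation p of 0.872 for each. Their rho lay between 0.00 and 0.50, with adjusted exact permutation p of 0.6 to 1.0. Taken as deviations from the genotype means, the r with Ddc was 0.81 for Chga, 0.73 for Neurod1, 0.67 for Pyy, 0.55 for Sct and 0.44 for Insl5. It was 0.27 for Chgb, -0.04 for Cck, -0.13 for Tph1 and -0.82 for Gcg, whose readings lie in the lowest 25% of levels.

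Neurod1, the basic helix-loop-helix factor that carries endocrine differentiation forward, showed no difference between genotypes beyond its error. Its brighter probe set read 5.81, 5.81 and 5.86 in KO and 5.74, 6.10, 5.71 and 5.82 in WT. The KO arrays lay close together inside the WT range, and WT replicate 2 was the highest. Every reading was below the highest nonspecific control of its array. The difference was -0.01 (SE 0.10, 95% interval -0.24 to 0.22; limma, adjusted p = 0.989), a sign that turns to 0.01 under quantile normalization or when each array is centred on its median. The dimmer probe set lay between 4.14 and 4.20 in KO and between 4.10 and 4.16 in WT, under the median of the nonspecific controls.

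Pyy encodes peptide YY, the satiety hormone of L cells, and read well above the nonspecific controls. It stood at 9.73, 9.45 and 10.14 in KO and at 9.01, 10.22, 9.46 and 9.10 in WT. WT replicate 2 was the highest array and WT replicates 1 and 4 the lowest, so the groups overlapped. The difference was 0.35 (SE 0.30, 95% interval -0.33 to 1.04; limma, adjusted p = 0.708). With 1 array left out it was 0.14 (without KO replicate 3) to 0.58 (without WT replicate 2). With the Gapdh covariate it turned to -0.11.

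Sct encodes secretin, which stimulates bicarbonate release. It read 6.87, 7.26 and 7.29 in KO, against 7.00, 7.15, 7.32 and 7.29 in WT. KO replicate 1 was the lowest array and the others overlapped. Every reading was below the highest nonspecific control of its array. The difference was -0.10 (SE 0.09, 95% interval -0.30 to 0.09; limma, adjusted p = 0.700). It was -0.034 without KO replicate 1 and -0.19 with the Gapdh covariate.

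The other 3 hormones lay among the lowest 25% of genes by level. Cck, the hormone of gallbladder contraction, read 5.08, 5.11 and 5.12 in KO and 5.00, 5.01, 5.11 and 5.36 in WT (difference -0.04, SE 0.07). Insl5, an insulin-like peptide of colonic L cells, read 4.86, 4.67 and 4.86 in KO and 4.63, 4.96, 4.86 and 4.94 in WT (difference -0.06, SE 0.09). Gcg, the proglucagon gene that gives GLP-1 in the gut, read 4.75, 4.67 and 4.75 in KO and 4.67, 4.60, 4.65 and 4.67 in WT (difference 0.07, SE 0.04). The 7 Gcg readings spanned 0.15 log2 units. At such readings a difference may not be detectable, and the 3 adjusted p in limma were 0.865, 0.860 and 0.611.

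The wider enteroendocrine programme was then read from gene lists, 1 brightest probe set per gene. Over all 17097 genes the median difference was -0.02, 40.6% had a positive difference, and 9.61% had an unadjusted p under 0.05, 5.78% higher and 3.83% lower in KO. KO and WT did not overlap for 5.13%, with KO above WT for 2.18% and below for 2.95%. None of the genes in the lists (0%) passed after adjustment, and 0 genes did so over the table.

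Of 17 endocrine transcription factors 14 were measured, with 7 positive and 7 negative differences, a median of 0.01 and 0 at an unadjusted p under 0.05. Foxa1, a pioneer factor of gut endoderm, differed by 0.19 (SE 0.08) and St18 by -0.06 (SE 0.03). St18 lay within the lowest 25% of genes. Neurog3, the factor that starts endocrine fate, averaged 5.16 in KO and 5.15 in WT, within the lowest 25% of genes.

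Of 18 genes for granule proteins and prohormone processing 17 were measured, 7 positive and 10 negative, with a median of -0.03. Cpe, the carboxypeptidase that trims prohormones, was the 1 with an unadjusted p under 0.05. It differed by 0.46 (SE 0.17; limma, adjusted p = 0.510), at 8.10, 7.95 and 7.36 in KO and 7.90, 7.54, 7.00 and 7.27 in WT. In each scan batch its KO arrays lay above the WT arrays, while over all arrays the groups overlapped. The share of all genes with that pattern within the batches was not counted. Stx1a, a syntaxin of vesicle fusion, differed by -0.25 (SE 0.12).

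Of 9 other gut hormones 8 were measured, 2 positive and 6 negative, with a median of -0.10. Npy, neuropeptide Y, of the same peptide family as Pyy, had the lowest p and its difference was opposite in sign to that of Pyy. It read 6.57, 6.45 and 6.31 in KO and 7.05, 7.24, 6.57 and 6.85 in WT, with a difference of -0.43 (SE 0.11; limma, adjusted p = 0.483). KO replicate 1 and WT replicate 3 carried the same value, and the remaining KO arrays lay below every WT array. Nts, neurotensin, differed by 0.27 (SE 0.12). Gip was the 1 gene of this list with no overlap, at 6.04 to 6.05 in KO and 6.11 to 6.30 in WT. Its difference was -0.14 (SE 0.07; limma, unadjusted p = 0.081, adjusted p = 0.571). The Gip readings lay below the highest nonspecific control of every array, which was 6.88 to 8.16.

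Of 16 genes of amine synthesis, transport and breakdown 13 were measured, 3 positive and 10 negative, with a median of -0.05 and 2 with an unadjusted p under 0.05, both lower in KO. Pdxk, the kinase that makes pyridoxal phosphate, the cofactor of DDC, read 9.86, 9.86 and 9.85 in KO and 10.19, 10.05, 10.01 and 10.14 in WT. Every KO array lay below every WT array, with a difference of -0.24 (SE 0.07; limma, adjusted p = 0.494). Spr, sepiapterin reductase, which makes the cofactor of TPH1, differed by -0.27 (SE 0.10; limma, adjusted p = 0.511). Slc18a1, the vesicular monoamine transporter of enterochromaffin cells, differed by 0.02 (SE 0.11).

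**Figure D5:**
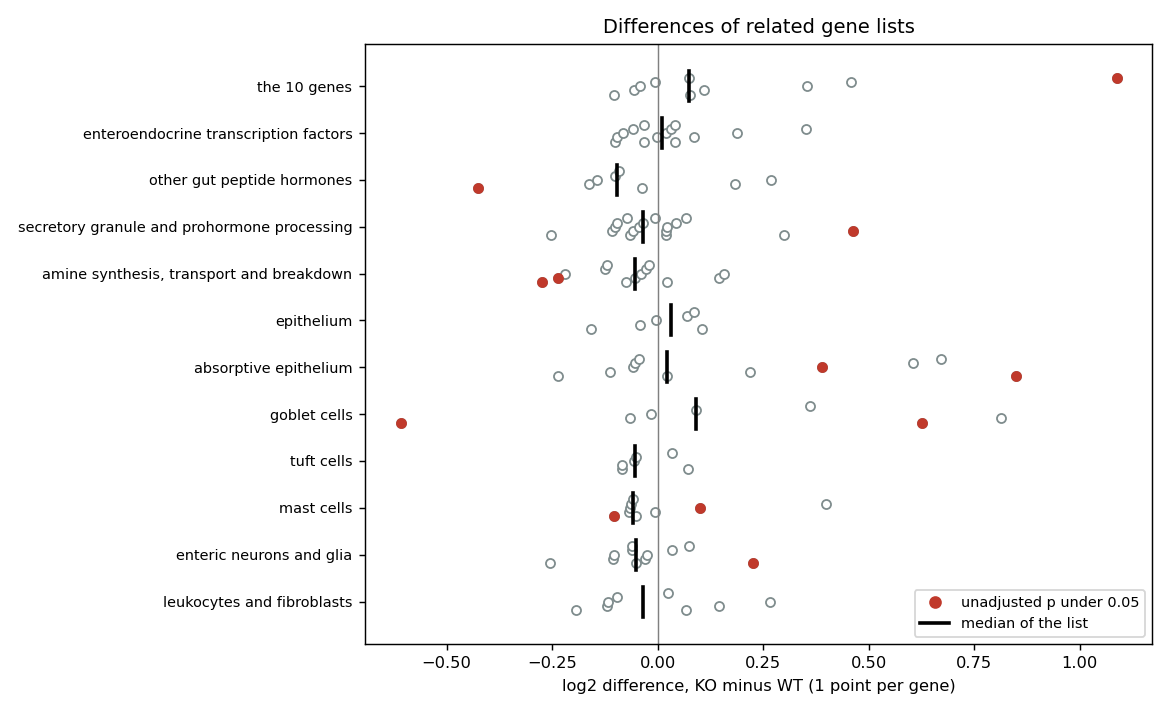
Log2 difference, KO minus WT (x axis), of each gene in the 12 lists (y axis), red where the unadjusted p was under 0.05 and with a black bar at the list's median. The medians lie between -0.10 and 0.09, and Ddc has the largest value of all genes shown.

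Markers of other cells were read in the same way, and 0 of them passed after adjustment. Mast cells also make serotonin through Tph1, and 7 of their 9 markers, among them Cpa3, Mcpt1 and Kit, lay within the lowest 25% of genes. The mean of the mast cell list was 4.96 to 5.02 in KO and 4.85 to 5.08 in WT. Kit differed by 0.10 (SE 0.04) and Mcpt4 by -0.10 (SE 0.04), both at readings near the nonspecific controls. Tpsab1 and the chymase Cma1 read higher, and Cma1 averaged 8.54 in KO and 8.04 in WT (difference 0.40, SE 0.19). Of 13 neuronal and glial markers 11 were measured, with list means of 5.54 to 5.57 in KO and 5.51 to 5.66 in WT, and Elavl4, Snap25, Vip, S100b and Gfap lay within the lowest 25%. Snap25 differed by 0.23 (SE 0.09) and Sox10 by -0.11 (SE 0.09).

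Absorptive markers were measured for 11 of 13 genes, with 6 positive and 5 negative differences and a median of 0.02. The list mean was 6.65 to 7.31 in KO and 6.41 to 6.79 in WT. Guca2a, the guanylin precursor, differed by 0.85 (SE 0.31; limma, adjusted p = 0.510), at 10.12, 10.85 and 10.68 in KO and 8.88, 10.19, 10.08 and 9.40 in WT. Slc5a1, the sodium-glucose transporter SGLT1, differed by 0.39 (SE 0.15; limma, adjusted p = 0.517). These 2 genes had the unadjusted p under 0.05, and in both, as in Ddc, KO replicate 1 lay below WT replicate 2.

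Goblet markers were measured for 7 of 8 genes, 4 positive and 3 negative, with list means of 7.52 to 8.05 in KO and 7.10 to 7.91 in WT. Atoh1, the secretory fate factor upstream of endocrine cells too, differed by 0.63 (SE 0.27) and Clca1 by -0.61 (SE 0.23). Tuft cell markers were measured for 6 of 7 genes, with list means of 6.05 to 6.14 in KO and 6.08 to 6.16 in WT. Il25 differed by -0.09 (SE 0.05) and Rgs13 by 0.03 (SE 0.03), both within the lowest 25% of genes. The 6 epithelial markers had list means of 10.07 to 10.24 in KO and 10.09 to 10.19 in WT, and Cdh1 and Cdx2 differed by 0.11 (SE 0.07) and -0.16 (SE 0.11). The 8 leukocyte and fibroblast markers had list means of 5.77 to 6.29 in KO and 5.70 to 6.32 in WT, and Pdgfra and Ptprc differed by -0.10 (SE 0.05) and 0.07 (SE 0.04). The part of these cell types in the Ddc difference was not tested.

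The 5 genes whose levels ran most like those of Ddc over the 7 arrays were sought among 12822 genes above the lowest 25% of levels. First came Gpsm2, a spindle orientation protein (r = 0.993), Yif1a, of endoplasmic reticulum to Golgi traffic (r = 0.991), and the glucose transporter Slc5a1 (r = 0.983). The mitochondrial acetate enzyme Acss1 (r = 0.978) and Perp, a desmosome-associated p53 target (r = 0.978), followed. None of the 5 is in the endocrine lists. Each of those lists holds only 7 to 12 of the 12822 genes, so this absence was likely by number alone and no conclusion is drawn from it. Slc5a1 read 8.42, 8.65 and 8.70 in KO and 7.88, 8.52, 8.19 and 8.15 in WT, high in the KO arrays and WT replicate 2 and lowest in WT replicate 1, as Ddc was. In all 120 genes had an r over 0.9 with Ddc. All these values share the same 7 arrays, their RNA quality and their genotype, and the highest of many r over 7 points are a description.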

How the data were processed

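The deposited log2 values come from RMA, run by the authors per the submitters' processing notes. RMA corrects background, normalizes across arrays and summarises each probe set. No label states its version or a later filter. Scanner files were not analysed here, so background correction was not varied and depth has no meaning for these arrays.

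Of 45141 probe sets 104 were controls. Of the rest, 28898 had 1 gene symbol in the platform annotation, 551 several and 15588 none, and only the first were named. The brightest probe set of a gene is that with the highest mean over all arrays. Symbols of the 10 genes matched the RefSeq gene numbers of GRCm38.p6, which also gave the promoters.

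Genotypes were compared in R 4.3.3 with limma 3.58.1 (lmFit, then eBayes with a trend), scan batch being a term of the model. Tests were two-sided and p-values adjusted by Benjamini-Hochberg over all 45037 probe sets. Intervals are at 95% and unadjusted. Single values and pairs were compared by exact permutation of arrays (Python 3.11.15). The fit was repeated in 18 other ways. Equal values of several arrays, which the median step of RMA can give, occur in Chga, Chgb, Gcg, Insl5, Cck and the dimmer probe sets of Ddc and Neurod1.

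The genes named are the 10, the 2 of smallest p in each of 11 lists, and those most like Ddc and Chga. The genes, lists and tests were chosen with earlier results of these data known. Neurog3, Gip, Slc18a1, Cma1, Col3a1 and the markers named for low readings were named after their values were seen.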

Additional observations from a re-analysis of the deposited data

Results flagged for a closer look

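In 4 of 50 groups of 4 WT arrays, 1 array stood apart from the other 3 by Dixon's criterion for 4 values, which sets the gap to the nearest array against the group's range. Chance flags about 1 group in 20. Chga was at 6.49 in WT replicate 1, against 6.80 in the nearest WT array, where 2 of the other arrays carry the same value. Chgb was at 6.80 in WT replicate 3, against 7.41 in the nearest. The mean of the absorptive list was 6.41 in WT replicate 1, against 6.74 in the nearest. The mean of the epithelial list was 10.09 in WT replicate 4, against 10.18 in the nearest. The groups of 3 KO arrays are too small for this criterion.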

How the results depend on the processing

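No paired analysis was possible because the labels give KO and WT arrays no number in common. The count of probe sets at adjusted p under 0.05 was 0 in all but 1 of the 18 other fits, and 1 without WT replicate 4, where Slc15a2, a peptide transporter, was called (limma, adjusted p = 0.0375). With 1 array left out the count was 0 to 1, and at unadjusted p under 0.05 it was 2273 to 7589, against 4231 with all arrays. That count was 2636 with no scan batch term, 2403 within scan batch 1, 8699 within scan batch 2, 10866 with array weights, and 1462 of 12822 genes and 2814 of 22518 probe sets under the level filters. The Ddc difference was positive in every alternative but its dimmer probe set (-0.031), and ranged from 0.90 to 1.40 with 1 array left out. It passed only with WT replicate 2 and the lower 25% of genes both left out, at 1.38 (limma, adjusted p = 0.0208). That setting was picked once the values were known, and it leaves out the WT array with the highest Ddc. With array weights the Ddc difference was 1.34 (limma, adjusted p = 0.0521). The excess of Ddc over Tph1, Chga and Chgb was positive under all 11 alternatives for each pair. With 1 array left out it was 0.82 to 1.34, 0.83 to 1.22 and 0.33 to 1.02. With the mean of each gene's probe sets, which brings in the dim Ddc set, it was 0.43, 0.41 and 0.052.

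Signs that turned, all at adjusted p over 0.05 in limma, were as follows. Within scan batch 1 they were Chgb (-0.51), Insl5 (0.061) and Cck (0.074). Within scan batch 2, which is also the estimate without KO replicate 1, they were Tph1 (-0.070) and Neurod1 (0.068). With the Gapdh covariate they were Chgb (-0.089), Pyy (-0.11) and Cck (0.012). Tph1 was -0.0030 without WT replicate 3, Insl5 0.0097 without KO replicate 2 and Cck 0.039 without WT replicate 4. Neurod1 was 0.012 with quantile normalization, 0.0059 with median centring, 0.066 with array weights, 0.066 without WT replicate 2, 0.0029 without WT replicate 4 and 0.028 on its other probe set. The causes were not tested. With 1 array left out Tph1 ranged from -0.070 to 0.23, Insl5 from -0.13 to 0.0097, Cck from -0.12 to 0.039 and Neurod1 from -0.053 to 0.068. Cck, Insl5 and Gcg lay in the lowest 25% of genes and have no value where that part was left out. Tph1 and Neurod1, at percentiles 47.4 and 47.6 of level, have no value where the lower 50% of probe sets was left out.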

Other observations

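The genes that ran most like Chga over the 7 arrays, among those above the lowest 25% of levels, were Gpr20, an orphan receptor (r = 0.996), Bcl9l, a co-factor of beta-catenin (r = 0.984), the alcohol dehydrogenase Adh1 (r = 0.982), the long noncoding RNA Morrbid (r = 0.98) and Prxl2b (r = 0.977). None of them is in the enteroendocrine lists, but each list holds only 7 to 12 of the 12822 genes, so this absence was likely by number alone. Adh1 read 9.93, 10.84 and 10.73 in KO and 8.99, 10.42, 10.15 and 10.08 in WT, with a difference of 0.49 (SE 0.30; limma, adjusted p = 0.621). In all 85 genes had an r over 0.9 with Chga. Isl1, an endocrine transcription factor, was at 8.91, 9.07 and 9.09 in KO and at 7.62, 9.04, 9.28 and 8.47 in WT, and Tff3, the goblet cell trefoil peptide, at 10.77, 11.54 and 11.85 in KO and at 8.96, 11.15, 10.75 and 10.88 in WT. Both were lowest in WT replicate 1, the array that was also lowest for Ddc, Chga and Pyy. Guca2a, Slc5a1 and Adh1, which are not in the endocrine lists, were lowest there too. That array had the lowest median over all probe sets, at 5.955. How many of all probe sets are lowest in it was not counted. Isl1 and Tff3 were named after their values were seen.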
